A study of Mus musculus with 15 samples.

Results

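The genes described here are 39 mouse genes of cholesterol and fatty acid synthesis whose transcription is linked to the sterol regulatory element binding proteins. They were taken as a named list: 24 of them make up a sterol branch and 15 a fatty acid branch. Srebf1 is counted in the sterol branch, with the other sterol sensing genes. A gene was represented by 1 probe set that is annotated to it alone. Among these genes this was the brightest by mean log2 signal over all arrays, except for Hmgcs1, Fdft1 and Hsd17b7. Their brightest set has a suffix that marks possible cross-hybridisation (_x_at), and the next brightest was used. On this array 38 of the 39 genes had a probe set annotated to them alone, out of 18193 genes with one. Of the 38, 23 are in the sterol branch and 15 in the fatty acid branch, and the sterol branch gene Acat2 had none. All 38 lay above the array median on all 15 arrays, so the filter on dim genes removed no member.

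RNA was measured in mammospheres, floating clusters grown from primary mammary tumour cells of FVB/N mice that carry MMTV-PyMT, a transgene in which the promoter of a mammary tumour virus drives the polyoma middle T antigen in mammary epithelium. All groups share this transgene, strain and culture: serum-free medium with EGF, FGF and B27, cells kept unattached for 10 days and then for 2 more days with an inhibitor or vehicle. There were 5 groups of 3 samples: DAPT, which blocks γ-secretase and with it Notch activation; U0126, which blocks MEK1; TAE226, which blocks focal adhesion kinase (FAK); PP2, which blocks Src family kinases; and vehicle. The design asks which transcripts change when each of these pathways is inhibited. The labels state no inhibitor dose, and each compound can act on other proteins. They call the samples biological replicates without naming the mice or cultures these came from, so each p-value reflects only how much these samples vary, which may be technical.

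Cholesterol is built from acetyl-CoA through mevalonate, farnesyl diphosphate, squalene and lanosterol, and fatty acids are built from acetyl-CoA through malonyl-CoA. The transcription factors of both branches, encoded by Srebf1 and Srebf2, are held in the endoplasmic reticulum by Scap and the Insig proteins while sterols are plentiful, and are carried to the Golgi, cut and released to the nucleus when sterols are scarce. Srebf2 products act mainly on sterol genes and Srebf1 products mainly on fatty acid genes. In mammary epithelium this programme is known for its rise in lactation, when milk fat is made.

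Signals are MAS5 intensities deposited with the same trimmed mean on every array; differences are given on the log2 scale as inhibitor over vehicle, and a gene is called where the adjusted p of the limma fit over all 11412 genes tested is under 0.05. Array medians ran from 65.7 to 90.8 signal units. A measure of RNA integrity, the 3′ over 5′ signal ratio of the actin controls, averaged 1.35 ± 0.07 under DAPT, 1.28 ± 0.07 under U0126, 1.33 ± 0.07 under TAE226 and 1.57 ± 0.04 under PP2, against 1.42 ± 0.06 under vehicle (SD, n = 3 each), and its part in the results was not tested. The samples are listed group by group, and the labels do not state the order in which the arrays were processed. An effect of that order therefore cannot be told apart from one of group. All 9 luminal and all 5 basal epithelial markers were above the array median. The summed luminal signal was 71073 to 72976 under DAPT and 75215 to 83765 under U0126, against 77707 to 80661 under vehicle. Under TAE226 it was 79455 to 89768, and under PP2 84885 to 87909. The summed basal signal was 15347 to 15708 under DAPT, 17167 to 18898 under U0126, 10737 to 11451 under TAE226 and 8399.5 to 9122 under PP2, against 12605 to 13887 under vehicle. By gene, 2 basal markers rose and 1 fell under DAPT (median 0.33), and 2 rose and 2 fell under U0126 (median −0.17). Under TAE226 1 rose and 3 fell (median −0.23), and under PP2 4 fell (median −0.58). For fibroblasts 5 of 6 markers and for endothelium 4 of 5 were not above the median. Of 6 leukocyte markers 5 had a probe set, and 2 of these, Ptprc and Cd3e, were not above the median. Of 9 adipocyte markers 7 had a probe set, and Adipoq, Plin4, Cidec, Fabp4, Lep and Retn were not above the median, with a summed list signal of 193 to 235 under DAPT, 186 to 282 under U0126, 195 to 343 under TAE226 and 192 to 270.2 under PP2, against 134 to 226 under vehicle. The 8 milk genes moved with the treatment: their summed signal was 26071 to 29171 under DAPT, 8596 to 9842 under U0126, 22916 to 28118 under TAE226 and 66805 to 71926 under PP2, against 29385 to 33878 under vehicle. The part of the milk, luminal and basal shifts in the results below was not tested. In these bulk samples, fewer cells of a type and less RNA per cell cannot be told apart.

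Under every inhibitor more sterol branch genes fell than rose, and PP2 and TAE226 moved the branch furthest. Under PP2, 17 of 23 sterol genes fell and 3 rose, with a branch median log2 fold change of −0.64, against 26.7% of all genes tested falling, 26.1% rising and an all-gene median of 0.020. Under TAE226, 17 fell and 1 rose (median −0.46), against 15.9% falling and 15.2% rising and an all-gene median of 0.019. Under DAPT, 10 fell and 2 rose (median −0.24), against 17.5% falling, 17.1% rising and an all-gene median of 0.018. Under U0126, 11 fell and 1 rose (median −0.18), against 21.4% falling, 19.5% rising and an all-gene median of 0.0015. The falls called in every fit that left out 1 array of the pair of groups numbered 17 under PP2, 14 under TAE226, 8 under DAPT and 6 under U0126. The share of all genes tested that kept a fall in every such fit was not taken. With the mean of all probe sets, called sterol genes numbered 7 under DAPT and 7 under U0126, in place of 12 each. Of all 10595 genes tested in that setting, 1651 rose and 1395 fell under DAPT, and 1801 rose and 1800 fell under U0126. The 7 calls among 23 sterol genes lie near those shares under both inhibitors.

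The fatty acid branch split by inhibitor. Under TAE226, 13 of 15 genes fell (median −0.32), and 10 of the 13 falls were called in every fit without 1 array; the other two, Acly and Acaca, were at −0.11 and −0.19. Under PP2, 7 fell and 4 rose (median −0.15), under DAPT, 5 fell and 2 rose (median −0.071), and under U0126, 1 fell and 2 rose (median 0.022, which was −0.015 without U0126 replicate 2 and −0.060 with arrays centred on their medians). The background shares are those given for the sterol branch. The comparisons against vehicle share the same 3 vehicle arrays. Over the 5 groups, 34 of 38 genes differed by the limma F-test, against 73.2% of all genes tested, and the genes that did not pass were Mvk, Scap, Insig2 and Acaca.

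Of the 23 sterol genes, 18 fell under at least 1 inhibitor, as did 14 of 15 fatty acid genes, against 42.5% of all genes tested. Of the sterol genes 7 fell under all 4 inhibitors, namely Idi1, Fdft1, Sqle, Cyp51, Msmo1, Nsdhl and Sc5d, against 5.11% of all genes tested. Of these 7, 4 remained without U0126 replicate 2 and 3 without vehicle replicate 3. Cyp51, Msmo1 and Sc5d fell under all 4 in every fit without 1 array. Other probe sets of Sc5d rose under some or all inhibitors, as given below. With the mean of all probe sets 3 of the 7 remained, namely Cyp51, Fdft1 and Nsdhl. Elovl5 was the 1 fatty acid gene that fell under all 4, and it did so in every fit without 1 array. Of the fatty acid genes 4 (Me1, Thrsp, Elovl6 and Fads2) fell under 1 inhibitor and rose under another, against 12% of all genes tested. The lowest fold change of a gene was under PP2 for 15 of 23 sterol genes and under TAE226 for 10 of 15 fatty acid genes. The share of all genes tested that this holds for was not taken, so these counts have no background beside them. Calls over all 11412 genes tested numbered 6030 under PP2 and 3548 under TAE226.

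**Figure D1:**
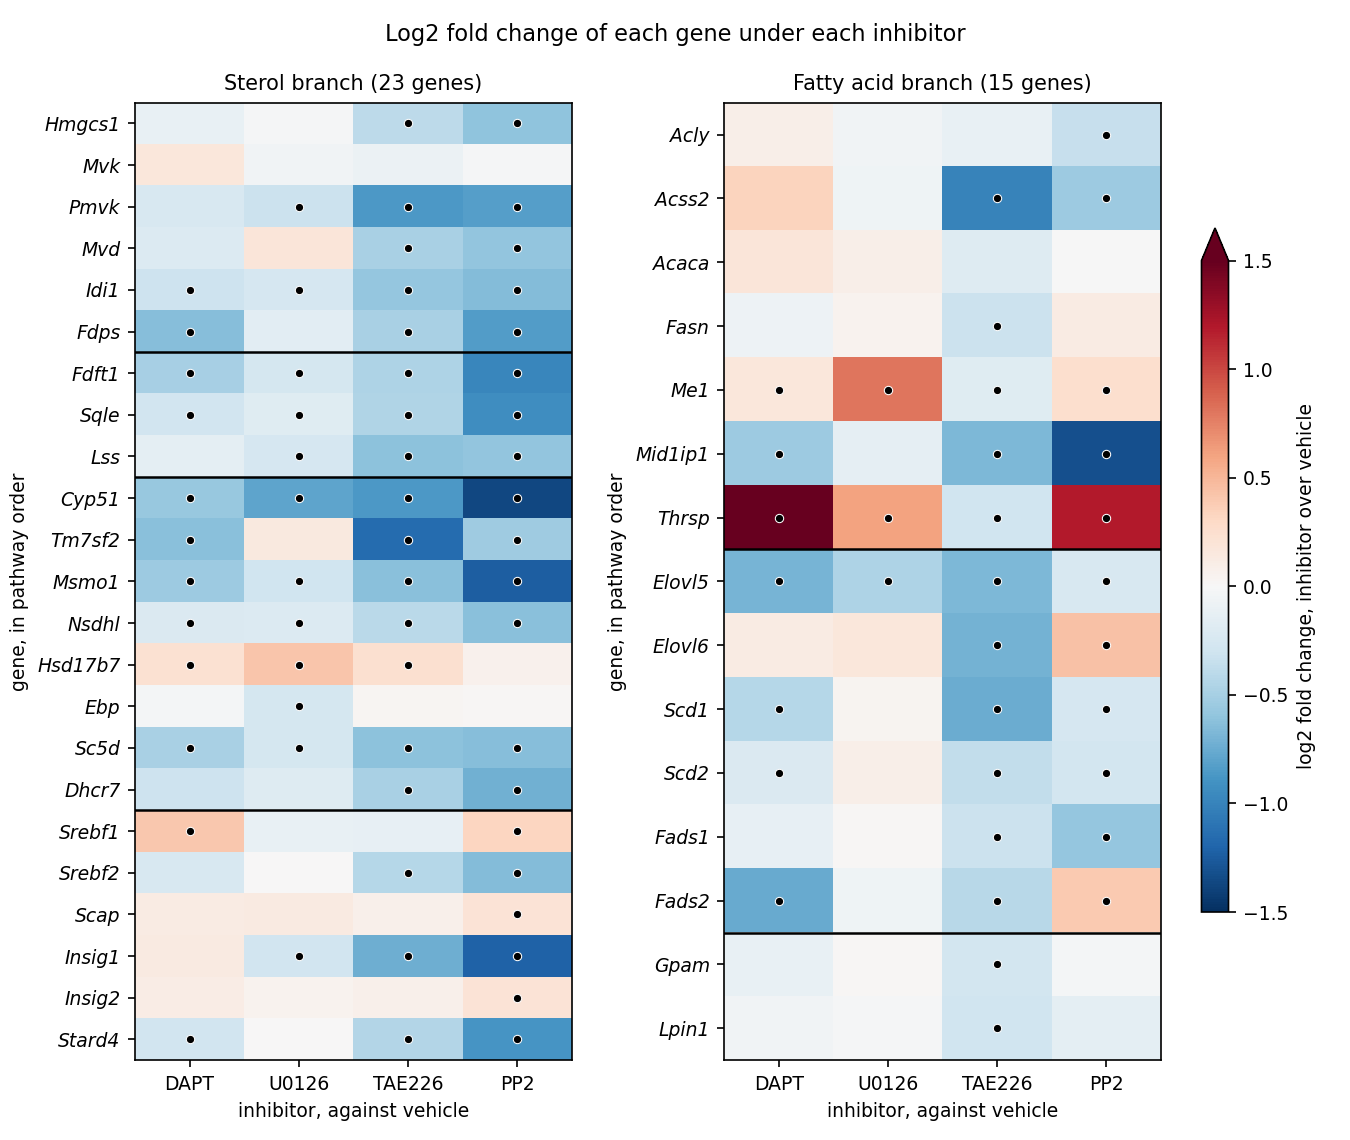
Heat map of the log2 fold change, inhibitor over vehicle, of 38 genes (rows, in pathway order, sterol branch on the left and fatty acid branch on the right, black lines between steps) under 4 inhibitors (columns). A black dot marks an adjusted p under 0.05; blue covers 17 called sterol genes under TAE226 and 17 under PP2, while the fatty acid panel holds called rises of Thrsp under DAPT, U0126 and PP2. The colour scale ends at 1.5, and Thrsp under DAPT, at 2.11, lies past it.

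The values depend on how arrays are scaled. With each array centred on its median, the all-gene median moved to −0.12 under DAPT, −0.081 under U0126, −0.24 under TAE226 and −0.20 under PP2. Rises smaller than such a shift therefore have no settled direction, and falls have no settled size. Under that centring 689 genes rose and 2444 fell under DAPT, 1211 and 2424 under U0126, 428 and 4241 under TAE226, and 1210 and 4331 under PP2, against 1950 rises and 1998 falls, 2222 and 2441, 1732 and 1816, and 2978 and 3052 in the scaling as deposited. The sterol branch then had 1 rise and 14 falls under DAPT, 1 and 11 under U0126, 18 falls alone under TAE226 and 17 falls alone under PP2, with medians of −0.37, −0.26, −0.72 and −0.86 in that order. The fatty acid branch had 1 rise and 5 falls under DAPT, 2 and 1 under U0126, 15 falls alone under TAE226 and 2 and 8 under PP2, with medians of −0.20, −0.060, −0.58 and −0.37. Centring shifts all genes of an array alike, so it leaves the gap between a branch median and the all-gene median as it was. With quantile normalization the sterol medians were −0.24, −0.17, −0.43 and −0.60.

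**Figure D2:**
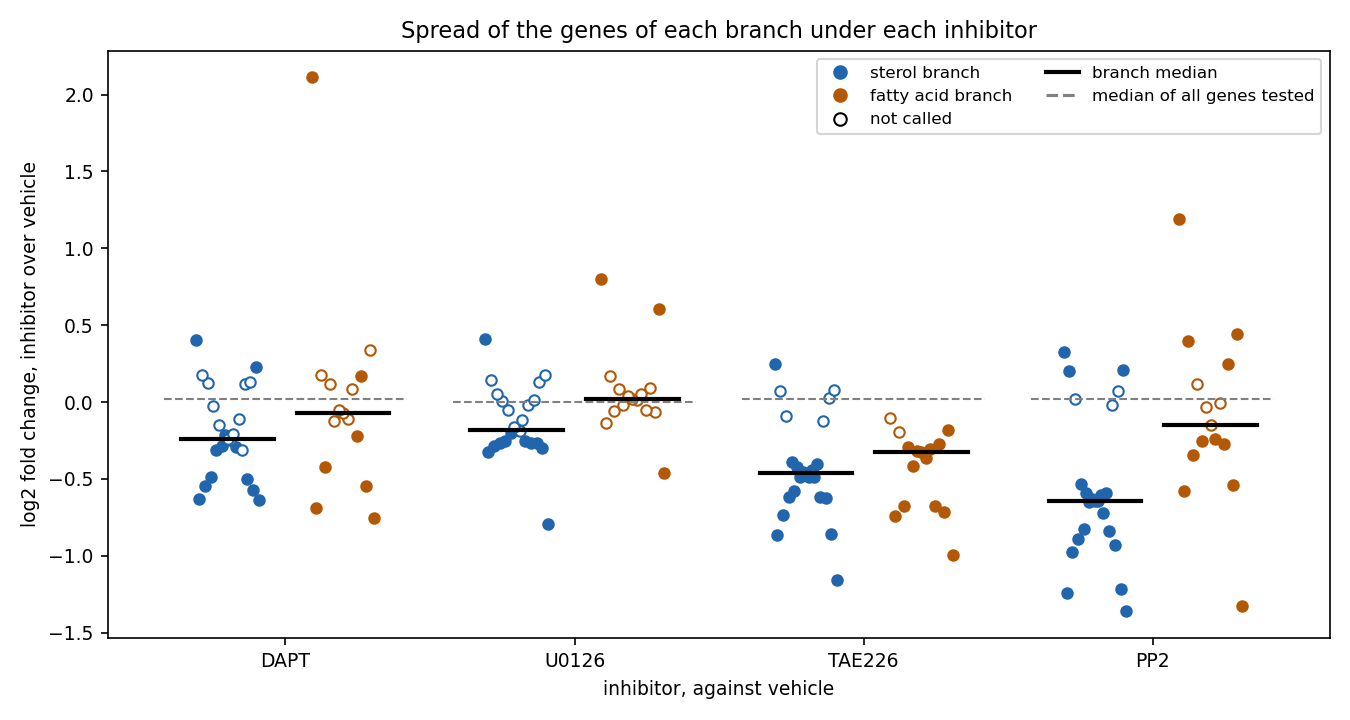
Log2 fold change, inhibitor over vehicle (vertical axis), of each sterol branch gene (blue) and fatty acid branch gene (orange) under the 4 inhibitors; filled points passed an adjusted p of 0.05, black bars are branch medians and the dashed line is the median of all genes tested. The sterol medians lie at −0.24, −0.18, −0.46 and −0.64 from left to right, and the fatty acid genes under PP2 run from −1.32 to 1.19.

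Promoters of 32 of the 39 genes were in the RefSeq table (GRCm38.p6), and the 250 bases before the start were searched on both strands for a core of the sterol response element (CACNCCAC), for the E-box CACGTG, for the letters of the CCAAT box and for the GC box GGGCGG. Fads1, Fdft1, Fdps, Scd1, Scd2, Sqle and Stard4 had no entry. The sterol response element core was in 3 of 28 promoters of the sterol branch (Acat2, Hmgcs1, Insig1), 1 of 14 of the fatty acid branch (Gpam) and 5.29% of all 32851 promoters. CCAAT was in 19 of 28 sterol promoters, 6 of 14 fatty acid promoters and 33.8% of all, and the GC box in 22 of 28, 6 of 14 and 32.7%. The E-box was in 5 of 28, 1 of 14 and 6.02%. The E-box reads the same on both strands, and the last letters of a sterol response element core can be shared with an E-box. A match is a description of the letters and not a binding site. The windows of 4 sterol genes that fell and of Thrsp, the gene that departed furthest from them, are shown 5′ to 3′ with matches to any of the 4 motifs in capitals; Hmgcs1 is at chr13:119690101-119690350, plus strand, Cyp51 at chr5:4104698-4104947, minus strand, Msmo1 at chr8:64733579-64733828, minus strand, Insig1 at chr5:28071162-28071411, plus strand and Thrsp at chr7:97417551-97417800, minus strand.
Hmgcs1: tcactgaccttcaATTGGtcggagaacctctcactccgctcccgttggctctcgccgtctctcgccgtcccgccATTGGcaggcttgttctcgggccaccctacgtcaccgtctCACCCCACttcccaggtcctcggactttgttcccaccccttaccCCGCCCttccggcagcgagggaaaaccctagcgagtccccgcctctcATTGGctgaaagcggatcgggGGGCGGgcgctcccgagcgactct
Cyp51: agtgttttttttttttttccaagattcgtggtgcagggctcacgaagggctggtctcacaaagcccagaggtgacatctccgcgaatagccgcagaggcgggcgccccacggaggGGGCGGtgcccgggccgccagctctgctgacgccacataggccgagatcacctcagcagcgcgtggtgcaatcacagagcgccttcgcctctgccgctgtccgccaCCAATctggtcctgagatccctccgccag
Msmo1: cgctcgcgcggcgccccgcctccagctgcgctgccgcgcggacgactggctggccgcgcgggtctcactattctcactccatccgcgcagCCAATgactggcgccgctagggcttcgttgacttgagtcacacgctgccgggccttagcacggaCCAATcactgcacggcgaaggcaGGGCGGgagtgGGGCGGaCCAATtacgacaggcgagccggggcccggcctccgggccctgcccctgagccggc
Insig1: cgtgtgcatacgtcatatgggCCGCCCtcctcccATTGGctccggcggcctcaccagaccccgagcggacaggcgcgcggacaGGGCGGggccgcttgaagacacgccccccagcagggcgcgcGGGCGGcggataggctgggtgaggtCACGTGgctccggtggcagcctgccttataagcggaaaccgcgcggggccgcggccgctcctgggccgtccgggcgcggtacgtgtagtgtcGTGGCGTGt
Thrsp: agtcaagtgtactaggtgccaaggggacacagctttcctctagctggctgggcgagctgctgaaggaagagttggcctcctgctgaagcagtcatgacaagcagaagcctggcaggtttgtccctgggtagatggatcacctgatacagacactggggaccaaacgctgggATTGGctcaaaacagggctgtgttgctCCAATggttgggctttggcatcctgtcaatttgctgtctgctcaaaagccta
Hmgcs1 held 3 CCAAT boxes, 2 GC boxes and 1 sterol response element core, and Insig1 held 1 CCAAT box, 3 GC boxes, 1 E-box and 1 core. Cyp51 held 1 CCAAT box and 1 GC box, and Msmo1 held 3 and 2. Thrsp held 2 CCAAT boxes and no match to the other 3 motifs.

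In the steps from acetyl-CoA to farnesyl diphosphate, 5 of 6 measured genes fell under TAE226 and 5 of 6 under PP2 and 2 fell under DAPT and 2 under U0126. Of all genes tested, 15.9% fell under TAE226, 26.7% under PP2, 17.5% under DAPT and 21.4% under U0126. These shares, and the rising shares given for the sterol branch, also stand beside the counts of each later step. Pmvk encodes phosphomevalonate kinase. The signal of Pmvk was 1096, 1066 and 1052 under DAPT, 1053, 1014 and 971 under U0126, 817, 614 and 669.7 under TAE226, 627, 746 and 775 under PP2, against 1260.2, 1249 and 1289 under vehicle. Every inhibitor array lay below every vehicle array, with log2 fold changes of −0.24 under DAPT, which missed the threshold (adjusted p = 0.0545), −0.32 (adjusted p = 0.0102) under U0126, −0.86 (SE 0.093, adjusted p = 2.29e-06) under TAE226 and −0.83 (SE 0.093, adjusted p = 1.09e-06) under PP2. Fdps makes farnesyl diphosphate, the branch point to sterols and prenyl groups. The signal of Fdps was 2909, 2872 and 2526 under DAPT, 4042, 3716 and 3784 under U0126, 2812, 3361 and 3021 under TAE226, 2307, 2679 and 2244 under PP2, against 4119, 4224 and 4548 under vehicle. Its arrays also lay below vehicle under all 4 inhibitors, and the fold change was −0.64 (adjusted p = 9.09e-06) under DAPT, −0.49 (adjusted p = 0.000155) under TAE226 and −0.84 (adjusted p = 1.44e-07) under PP2, while U0126 at −0.16 missed the threshold (adjusted p = 0.123). Idi1, the isopentenyl diphosphate isomerase, was lower on all arrays of each inhibitor. Its signal was 3607, 3371 and 3645 under DAPT, 3442, 3799.6 and 3807 under U0126, 2756, 2992 and 3083 under TAE226, 2339, 3149.6 and 2993 under PP2, against 4376, 4194 and 4608 under vehicle. The log2 fold changes were −0.31 (adjusted p = 0.0109) under DAPT, −0.25 (adjusted p = 0.0274) under U0126, −0.58 (adjusted p = 8.33e-05) under TAE226 and −0.65 (adjusted p = 9.09e-06) under PP2.

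Hmgcs1, which makes HMG-CoA, fell under TAE226 (−0.39) and PP2 (−0.61) and missed the threshold under DAPT (−0.11) and U0126 (−0.019). With the brighter probe set that may cross-hybridise, it was also called under U0126, at −0.21. Mvd, the mevalonate diphosphate decarboxylase, fell under TAE226 (−0.49) and PP2 (−0.59). A second Mvd probe set, with a mean log2 signal of 8.16 against 8.23, gave −0.33 under TAE226 and −0.067 under PP2. The size of the Mvd fall under PP2 is therefore not settled. Mvk, mevalonate kinase, was called under no inhibitor, with fold changes from −0.092 to 0.17. Leaving out 1 array ended the calls of Idi1 under U0126 (leaving out vehicle replicate 1 or 3 or U0126 replicate 1, adjusted p = 0.0599 to 0.11) and Mvd under TAE226 (leaving out vehicle replicate 1 or 3 or TAE226 replicate 1 or 3, adjusted p = 0.051 to 0.0805).

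All 3 genes from farnesyl diphosphate to lanosterol fell under U0126, TAE226 and PP2, and 2 of them fell under DAPT. Fdft1 encodes squalene synthase, the first enzyme committed to sterols. The signal of Fdft1 was 1224, 1172 and 1192 under DAPT, 1491, 1277 and 1454 under U0126, 1209.7, 1278 and 1195 under TAE226, 868, 814 and 892 under PP2, against 1596, 1593 and 1897 under vehicle. No inhibitor array reached the vehicle range, and the lowest group was PP2, at a log2 fold change of −0.98 (SE 0.075, adjusted p = 1.03e-08), or 0.51-fold. The changes under the other inhibitors were −0.50 (adjusted p = 6.52e-05) under DAPT, −0.27 (adjusted p = 0.00875) under U0126 and −0.46 (adjusted p = 0.000163) under TAE226. Sqle, squalene epoxidase, was also lowest under PP2. The signal of Sqle was 3614, 3591 and 3704 under DAPT, 4338, 3631 and 3828 under U0126, 3123, 3435 and 3183 under TAE226, 2234, 2542 and 2248 under PP2, against 4359.7, 4240.5 and 4749 under vehicle. U0126 replicate 1 lay within the vehicle range and all DAPT, TAE226 and PP2 arrays lay below it. Its log2 fold changes were −0.29 (adjusted p = 0.00405) under DAPT, −0.18 (adjusted p = 0.0489) under U0126, −0.45 (adjusted p = 0.000103) under TAE226 and −0.93 (SE 0.070, adjusted p = 8.71e-09) under PP2. The call under U0126 was lost in quantile normalization, without the filter on dim genes, without the intensity trend and in the fit of 2 groups. It was also lost with replicate number as a block (adjusted p = 0.072) and where the probe sets of other genes were changed. Sqle has 1 probe set, so its own signals were the same there.

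Lss closes the ring to lanosterol. The signal of Lss was 1074, 959 and 1071 under DAPT, 984, 884 and 1031 under U0126, 739.5, 752 and 751 under TAE226, 831, 722 and 736 under PP2, against 1140.5, 1051 and 1262 under vehicle. The DAPT arrays overlapped vehicle, and the other 3 inhibitors did not. The log2 fold changes were −0.15 under DAPT (adjusted p = 0.163), −0.25 (adjusted p = 0.0202) under U0126, −0.62 (adjusted p = 1.92e-05) under TAE226 and −0.59 (adjusted p = 1.07e-05) under PP2. Without 1 array, the calls lost in this step were those of Fdft1 under U0126 (leaving out vehicle replicate 3 or U0126 replicate 2, adjusted p = 0.0548 to 0.0554), Sqle under U0126 (leaving out vehicle replicate 1 or 3 or U0126 replicate 2 or 3, adjusted p = 0.0738 to 0.207) and Lss under U0126 (leaving out vehicle replicate 3 or U0126 replicate 2, adjusted p = 0.103).

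From lanosterol to cholesterol, 6 of 8 genes fell under TAE226, 6 under PP2, 5 under DAPT and 5 under U0126. The probe set used for Hsd17b7 rose under DAPT, U0126 and TAE226, while a brighter set did not rise under DAPT and TAE226. Cyp51 encodes the P450 demethylase that acts on lanosterol. The signal of Cyp51 was 1993, 2081 and 2031 under DAPT, 1761, 1665 and 1799.5 under U0126, 1798, 1679 and 1538 under TAE226, 1144, 1193 and 1196 under PP2, against 3032, 3151 and 2891 under vehicle. The 12 inhibitor arrays all lay below the 3 vehicle arrays, and the PP2 arrays lay below all others. The log2 fold changes were −0.57 (adjusted p = 1.23e-06) under DAPT, −0.80 (adjusted p = 1.38e-08) under U0126, −0.86 (adjusted p = 1.54e-08) under TAE226 and −1.36 (SE 0.060, adjusted p = 8.96e-12) under PP2, the last a fold of 0.39. Msmo1 encodes the methylsterol oxidase that acts next to it in the removal of methyl groups. The signal of Msmo1 was 3053, 2934 and 2829.9 under DAPT, 3416, 3382 and 3669.8 under U0126, 2925, 2784 and 2622 under TAE226, 1714, 1814 and 1922 under PP2, against 4390.0, 4265 and 4198 under vehicle. PP2 arrays were again the lowest, none of the inhibitor arrays overlapped vehicle, and the fold changes were −0.54 (adjusted p = 1.34e-06) under DAPT, −0.30 (adjusted p = 0.000514) under U0126, −0.63 (adjusted p = 3.77e-07) under TAE226 and −1.24 (SE 0.058, adjusted p = 1.78e-11) under PP2.

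Tm7sf2, a sterol reductase, had another order. The signal of Tm7sf2 was 488, 468 and 381 under DAPT, 826, 706 and 749.7 under U0126, 292, 296 and 338 under TAE226, 482, 411 and 538 under PP2, against 689, 630.1 and 748 under vehicle. It was lowest under TAE226, at −1.16 (SE 0.11, adjusted p = 9.35e-07), was −0.63 (adjusted p = 0.000402) under DAPT and −0.54 (adjusted p = 0.00084) under PP2, and overlapped vehicle under U0126, where the fold change was 0.14 (adjusted p = 0.349). Nsdhl, a dehydrogenase in methyl group removal, had fold changes of −0.21 under DAPT, −0.20 under U0126, −0.40 under TAE226 and −0.63 under PP2, all called. Sc5d, a sterol desaturase, had −0.49 under DAPT, −0.26 under U0126, −0.62 under TAE226 and −0.64 under PP2, all called; a second probe set of the gene gave −0.12, 0.12, −0.17 and 0.11 in the same order, so the direction of the Sc5d change is not settled under U0126 and PP2, nor is its size elsewhere. The mean of all its probe sets ended the 4 calls, at 0.015 under U0126 and 0.12 under PP2. Dhcr7, the reductase of the last step, fell under TAE226 (−0.49) and PP2 (−0.72).

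Ebp, a sterol isomerase, was called under U0126 alone at −0.27 (adjusted p = 0.00174) and lay between −0.024 and 0.028 under the other 3. Hsd17b7, the ketoreductase of methyl group removal, was 0.23 (adjusted p = 0.0218) under DAPT, 0.41 (adjusted p = 0.00022) under U0126, 0.24 (adjusted p = 0.0161) under TAE226 and 0.070 under PP2. Its direction is not settled: the brighter probe set that may cross-hybridise gave −0.066 under DAPT, 0.15 under U0126, −0.23 (adjusted p = 0.0253) under TAE226 and −0.32 (adjusted p = 0.00146) under PP2, and median centring gave −0.0093 under TAE226. Leaving out 1 array ended the calls of Hsd17b7 under DAPT (leaving out vehicle replicate 2 or DAPT replicate 3, adjusted p = 0.089 to 0.11), Hsd17b7 under TAE226 (leaving out vehicle replicate 2 or TAE226 replicate 3, adjusted p = 0.0802 to 0.0878), Nsdhl under DAPT (leaving out vehicle replicate 3 or DAPT replicate 2 or 3, adjusted p = 0.0611 to 0.148), Nsdhl under U0126 (leaving out vehicle replicate 2 or 3 or U0126 replicate 2 or 3, adjusted p = 0.0504 to 0.17) and Dhcr7 under TAE226 (leaving out vehicle replicate 1 or 2 or TAE226 replicate 1, adjusted p = 0.069 to 0.112).

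Among the sterol sensors and carriers, Insig1, Srebf2 and Stard4 fell under TAE226 and PP2, while Srebf1 rose under DAPT and PP2. Insig1 encodes the retention protein whose own gene is a classical target of the pathway. The signal of Insig1 was 1820.0, 1969 and 1962 under DAPT, 1429.6, 1315 and 1578 under U0126, 1115, 1062 and 984 under TAE226, 712, 766 and 789 under PP2, against 1781, 1796 and 1678 under vehicle. DAPT arrays were all above vehicle, though the change of 0.13 missed the threshold (adjusted p = 0.178), and the arrays of the other 3 inhibitors were all below it. The log2 fold changes were −0.28 (adjusted p = 0.00414) under U0126, −0.73 (SE 0.072, adjusted p = 8.03e-07) under TAE226 and −1.21 (SE 0.072, adjusted p = 3.63e-10) under PP2. Its relative Insig2 differed less. The signal of Insig2 was 2246, 2118 and 2229 under DAPT, 2138, 2045 and 2117 under U0126, 2177, 2219 and 1999 under TAE226, 2383, 2066 and 2604 under PP2, against 2031, 1986 and 2062 under vehicle. The called change of Insig2 was 0.21 (adjusted p = 0.0186) under PP2, which was −0.011 (adjusted p = 0.944) with median centring and was lost without PP2 replicate 1 or 3 or vehicle replicate 2 (adjusted p = 0.0577 to 0.119) and in the fit of 2 groups.

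Srebf2 is the transcription factor gene of the sterol branch. The signal of Srebf2 was 829.7, 725 and 859.7 under DAPT, 1019, 944 and 909.6 under U0126, 588, 800.0 and 759 under TAE226, 714, 629 and 498 under PP2, against 895, 979.5 and 981 under vehicle. The arrays overlapped vehicle under U0126, where the fold change was 0.0082, and lay below it under DAPT (−0.24, adjusted p = 0.141), TAE226 (−0.42, adjusted p = 0.0152) and PP2 (−0.65, adjusted p = 0.000302). A second Srebf2 set gave −0.17 under TAE226 and −0.27 under PP2, so the size of these falls is not settled. Srebf1, whose products act mainly on fatty acid genes but which is counted here in the sterol branch, was higher under DAPT and PP2. The signal of Srebf1 was 9597, 9022 and 9208 under DAPT, 6522, 6904 and 5984 under U0126, 6058, 6581 and 6685 under TAE226, 8805, 8585 and 8945 under PP2, against 6822, 6759 and 7456 under vehicle. DAPT and PP2 arrays were all above vehicle, at 0.40 (SE 0.060, adjusted p = 5.61e-05) and 0.33 (SE 0.060, adjusted p = 0.000215), and U0126 and TAE226 at −0.12 and −0.12 missed the threshold. The PP2 rise was 0.11 (adjusted p = 0.388) with median centring, while under TAE226 that centring gave a called fall of −0.38.

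Stard4 encodes a sterol carrier of the cytosol. The signal of Stard4 was 1004, 808 and 957 under DAPT, 1080.1, 1169 and 1142 under U0126, 791, 844 and 838 under TAE226, 615, 626 and 577 under PP2, against 1235, 1014 and 1125 under vehicle. All DAPT, TAE226 and PP2 arrays lay below vehicle and the U0126 arrays overlapped it. Its log2 fold changes were −0.29 (adjusted p = 0.0144) under DAPT, 0.012 under U0126, −0.44 (adjusted p = 0.000685) under TAE226 and −0.89 (SE 0.084, adjusted p = 1.55e-07) under PP2. Scap, the escort protein, had fold changes of 0.079 to 0.20 and overlapped vehicle under all 4 inhibitors; it was called under PP2 (adjusted p = 0.047), and no fit without 1 of the PP2 arrays or without vehicle replicate 1 or 2 kept that call (adjusted p = 0.0759 to 0.201). Of the other calls in this step, leaving out 1 array ended those of Stard4 under DAPT (leaving out vehicle replicate 1 or DAPT replicate 2, adjusted p = 0.0815 to 0.0901) and Srebf2 under TAE226 (leaving out TAE226 replicate 1, adjusted p = 0.0884).

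**Figure D3:**
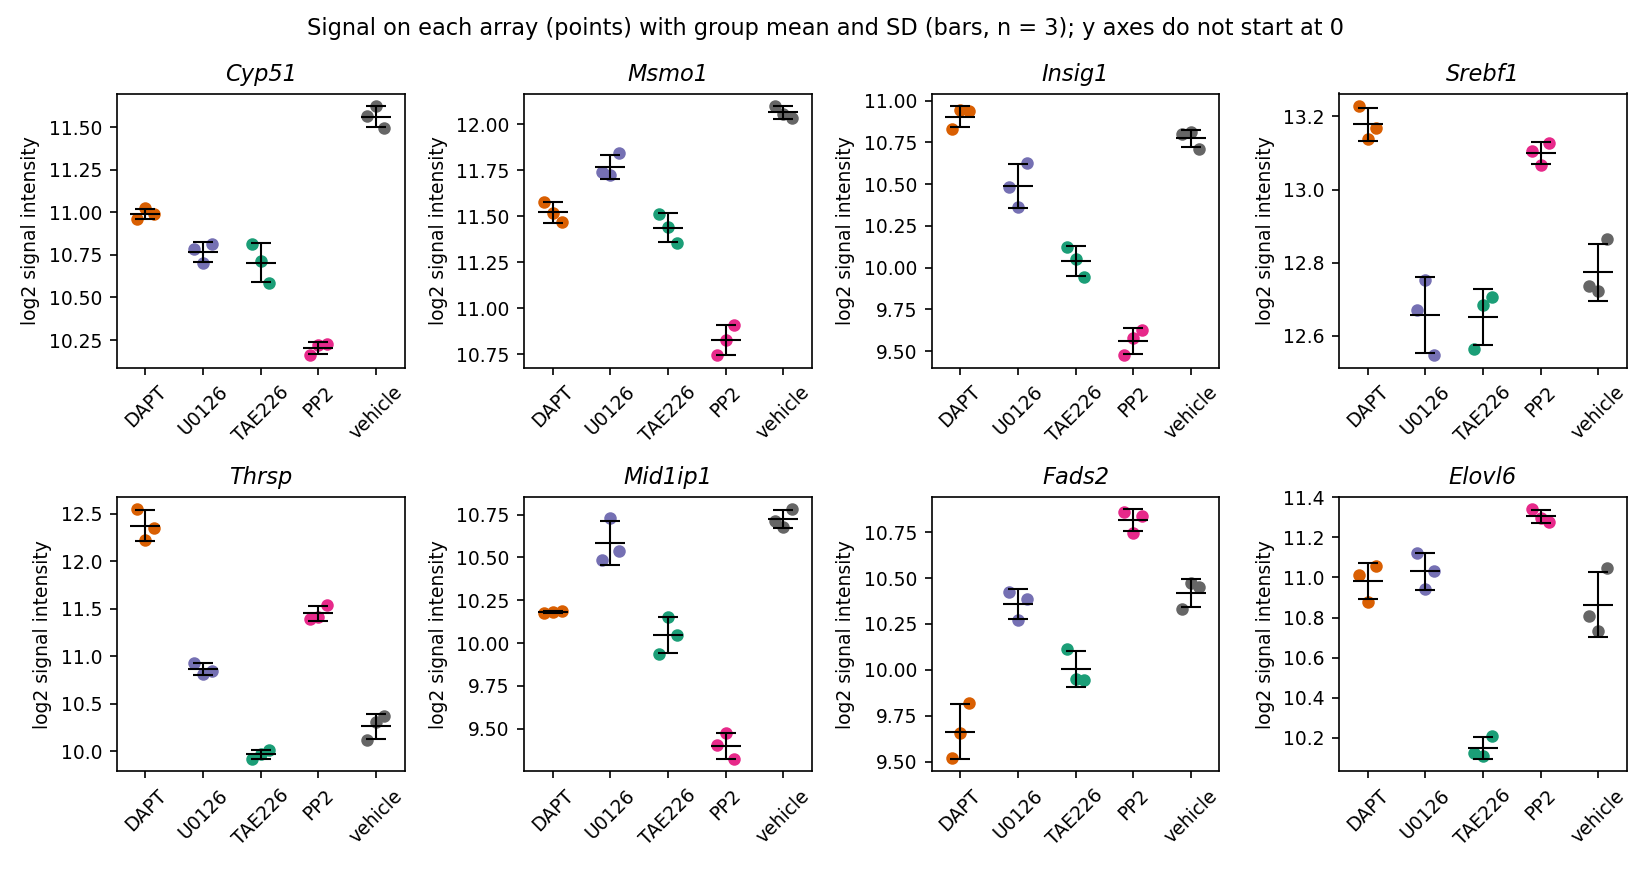
Log2 signal intensity of 8 genes on each array (points) by group, with the group mean and SD (bars, n = 3); vertical axes differ between panels and do not start at 0. PP2 arrays are the lowest group for Cyp51, Msmo1, Insig1 and Mid1ip1, DAPT arrays are the highest group for Thrsp and the lowest for Fads2, and TAE226 arrays are the lowest for Elovl6.

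The genes that supply and build fatty acids did not move as a group. Under TAE226, 5 of 7 fell, and under PP2, 3 fell and 2 rose. Under DAPT, 1 fell and 2 rose, and under U0126, 2 rose. The 2 rises under PP2 and the 1 fall under DAPT lie near the shares of all genes tested, 26.1% rising and 17.5% falling. Thrsp, a small regulator of fatty acid synthesis that is abundant in lactating mammary gland, had the greatest change of all members. The signal of Thrsp was 5986, 4793 and 5229 under DAPT, 1958, 1805 and 1846 under U0126, 969, 1003 and 1036 under TAE226, 2693, 2739 and 2990.5 under PP2, against 1111, 1266 and 1321 under vehicle. The DAPT arrays lay above all others and the TAE226 arrays below all others. The log2 fold changes were 2.11 (SE 0.079, adjusted p = 3.93e-12) under DAPT, which is 4.32-fold, 0.60 (adjusted p = 1.04e-05) under U0126, −0.29 (adjusted p = 0.00897) under TAE226 and 1.19 (SE 0.079, adjusted p = 1.62e-09) under PP2, which is 2.28-fold. The summed milk signal given above was highest under PP2 and lowest under U0126. By gene, 3 of 7 tested milk genes rose and 1 fell under DAPT (median 0.86), and 5 rose under PP2 (median 1.48). Under U0126 1 rose and 5 fell (median −1.62), and under TAE226 2 fell (median −0.13). The background shares are those given for the sterol branch. A link between Thrsp and the milk genes was not tested. Mid1ip1, the close relative of Thrsp that promotes assembly of acetyl-CoA carboxylase, fell under DAPT and PP2, where Thrsp rose. The signal of Mid1ip1 was 1154, 1163 and 1165 under DAPT, 1434, 1700.2 and 1485 under U0126, 982, 1139 and 1058 under TAE226, 678, 711 and 640.4 under PP2, against 1679, 1638 and 1759 under vehicle. DAPT, TAE226 and PP2 arrays all lay below vehicle and U0126 arrays overlapped it, with fold changes of −0.54 (adjusted p = 1.69e-05) under DAPT, −0.14 under U0126, −0.68 (adjusted p = 1.97e-06) under TAE226 and −1.32 (SE 0.071, adjusted p = 1.17e-10) under PP2.

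Acss2 makes cytosolic acetyl-CoA from acetate. The signal of Acss2 was 1176, 1136 and 1224 under DAPT, 763, 901 and 1032 under U0126, 600.1, 423 and 399.9 under TAE226, 674, 574 and 682 under PP2, against 974, 1084 and 766 under vehicle. TAE226 and PP2 arrays lay below vehicle, at −0.998 (SE 0.15, adjusted p = 6.82e-05) and −0.54 (SE 0.15, adjusted p = 0.00556). DAPT arrays lay above vehicle, at 0.34, without passing the threshold (adjusted p = 0.0883). A second Acss2 probe set, with a mean log2 signal of 9.40 against 9.61, gave −0.74 under TAE226 and −0.12 under PP2. The size of the Acss2 fall under PP2 is therefore not settled. Me1, the malic enzyme that supplies NADPH, had fold changes of 0.17 under DAPT, 0.80 under U0126, −0.18 under TAE226 and 0.25 under PP2, all called; the rise under U0126 (1.74-fold, adjusted p = 4.86e-09) was the one of these beyond 0.3. With median centring the Me1 rises under DAPT and PP2 were 0.034 and 0.027 and were not called. Fasn, fatty acid synthase, was called under TAE226 alone, at −0.32 (adjusted p = 0.000206), against −0.071 under DAPT, 0.051 under U0126 and 0.12 under PP2. Acly, ATP citrate lyase, was called under PP2 alone at −0.34 (adjusted p = 0.000192), and with median centring also under TAE226 (−0.36). Acaca, acetyl-CoA carboxylase, was called under none, between −0.19 and 0.18. Leaving out 1 array ended the calls of Me1 under DAPT (leaving out vehicle replicate 1 or 2 or DAPT replicate 1 or 2, adjusted p = 0.0716 to 0.103) and Me1 under TAE226 (leaving out vehicle replicate 3 or TAE226 replicate 1, adjusted p = 0.0685 to 0.0693).

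All 6 elongases and desaturases fell under TAE226, 4 fell and 2 rose under PP2, 4 fell under DAPT and 1 fell under U0126. The 1 fall of 6 under U0126 lies near the 21.4% of all genes tested that fell there. Fads2 carries out the first desaturation of essential fatty acids. The signal of Fads2 was 734, 806 and 902 under DAPT, 1373, 1234 and 1339 under U0126, 1109.6, 991 and 987 under TAE226, 1856, 1718 and 1832 under PP2, against 1291, 1422 and 1401 under vehicle. DAPT and TAE226 arrays lay below vehicle, at −0.76 (SE 0.077, adjusted p = 8.45e-07) and −0.42 (adjusted p = 0.000548), PP2 arrays lay above it, at 0.39 (adjusted p = 0.000368), and U0126 arrays overlapped it. The PP2 value was 0.18 (adjusted p = 0.215) with median centring. Fads1, its partner, had fold changes of −0.12 under DAPT, 0.022 under U0126, −0.32 under TAE226 and −0.58 under PP2, of which TAE226 and PP2 were called; another bright set of the gene gave 0.12 and 0.044 under these, so its direction is not settled. Elovl6 elongates saturated and monounsaturated fatty acids. The signal of Elovl6 was 2063, 1884 and 2130.3 under DAPT, 2231, 1965 and 2091 under U0126, 1117, 1105 and 1184 under TAE226, 2591, 2516 and 2482 under PP2, against 1793, 1704 and 2113 under vehicle. Its TAE226 arrays were the lowest and its PP2 arrays the highest of all groups, at −0.71 (SE 0.075, adjusted p = 1.77e-06) and 0.44 (SE 0.075, adjusted p = 9.54e-05). Elovl5, which elongates polyunsaturated fatty acids, had −0.69 under DAPT, −0.46 under U0126, −0.68 under TAE226 and −0.24 under PP2, all called.

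Scd1 and Scd2 encode stearoyl-CoA desaturases, which make oleate. The signal of Scd1 was 18021, 16372 and 16389.5 under DAPT, 23809, 25596 and 20609 under U0126, 13161, 13201 and 14274 under TAE226, 19016, 19121 and 18939 under PP2, against 22739, 20472 and 24981 under vehicle. The signal of Scd2 was 19149, 19191 and 19434 under DAPT, 23670.0, 25423 and 22252 under U0126, 16526, 17736 and 17966 under TAE226, 17853, 19276 and 18626 under PP2, against 22224, 21144 and 24000.5 under vehicle. For both genes the DAPT, TAE226 and PP2 arrays lay below vehicle and the U0126 arrays overlapped it. Scd1 had fold changes of −0.42 (adjusted p = 0.000535) under DAPT, −0.74 (adjusted p = 2.1e-06) under TAE226 and −0.25 (adjusted p = 0.013) under PP2, and Scd2 had −0.22 (adjusted p = 0.00992), −0.37 (adjusted p = 0.0002) and −0.27 (adjusted p = 0.00121) under the same inhibitors. Second probe sets, with mean log2 signals of 11.17 for Scd1 and 11.05 for Scd2 against 14.19 and 14.30 for the sets used, gave wider changes for most groups: Scd1 −1.06 under DAPT, 0.29 under U0126, −1.80 under TAE226 and −1.34 under PP2, and Scd2 −0.13, 0.16, −0.91 and −0.86 in that order. Another set of Scd2 gave 0.042 under PP2. The changes given for these 2 genes therefore depend on the probe set, and the cause was not tested. Leaving out 1 array ended the calls of Scd1 under PP2 (leaving out vehicle replicate 3, adjusted p = 0.0722), Scd2 under DAPT (leaving out vehicle replicate 3, adjusted p = 0.0527) and Fads1 under TAE226 (leaving out vehicle replicate 2 or 3 or TAE226 replicate 2, adjusted p = 0.0506 to 0.0547), and quantile normalization ended that of Scd2 under DAPT (−0.015, adjusted p = 0.841).

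Both measured genes of glycerolipid synthesis fell under TAE226 and were called under no other inhibitor. Gpam, the mitochondrial acyltransferase that starts triglyceride synthesis, had signals of 1026, 1008 and 1051 under TAE226, against 1293, 1258 and 1178 under vehicle, which did not overlap, and the fold change was −0.27 (adjusted p = 0.00415). Under DAPT its signals were 1164, 1148 and 1138, under U0126 1142, 1362 and 1269 and under PP2 1235, 1256 and 1161, with fold changes of −0.11, 0.014 and −0.030. Lpin1, the phosphatidate phosphatase, had signals of 804, 734 and 733 under TAE226, against 939.5, 989 and 875 under vehicle, and these did not overlap either, with a fold change of −0.30 (adjusted p = 0.0172). Its signals were 873, 816 and 1032 under DAPT, 822, 1007 and 943 under U0126 and 809, 885 and 837 under PP2, all overlapping vehicle. The Lpin1 call was lost without vehicle replicate 2, TAE226 replicate 2 or TAE226 replicate 3 (adjusted p = 0.058 to 0.0723).

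The direct contrast of TAE226 with PP2 separated the branches. In the sterol branch 9 genes were higher and 2 lower under TAE226 than under PP2 (median 0.18), and in the fatty acid branch 3 were higher and 9 lower (median −0.43), against 23.2% of all genes tested that were higher and 20.4% that were lower. Thrsp differed by −1.48 (SE 0.079, adjusted p = 1.44e-10), Elovl6 by −1.16 (SE 0.075, adjusted p = 1.75e-09) and Fads2 by −0.81 (SE 0.077, adjusted p = 2.17e-07), all lower under TAE226. Scd1 (−0.49), Fasn (−0.44), Elovl5 (−0.44), Me1 (−0.43), Acss2 (−0.46) and Gpam (−0.24) were also lower. Mid1ip1 (0.65), Fads1 (0.26) and Acly (0.24) were the fatty acid genes that were higher under TAE226. In the sterol branch Msmo1 (0.61), Fdft1 (0.52), Cyp51 (0.50), Insig1 (0.48), Sqle (0.47), Stard4 (0.44), Fdps (0.35), Nsdhl (0.23) and Hmgcs1 (0.22) were higher under TAE226, and Tm7sf2 (−0.62) and Srebf1 (−0.45) were lower. Leaving out 1 array ended the calls of Nsdhl (leaving out TAE226 replicate 2 or PP2 replicate 1 or 3, adjusted p = 0.0531 to 0.0715), Acss2 (leaving out TAE226 replicate 2 or 3 or PP2 replicate 1 or 3, adjusted p = 0.0621 to 0.0945) and Fads1 (leaving out TAE226 replicate 1 or 3 or PP2 replicate 1 or 3, adjusted p = 0.0574 to 0.112), and median centring ended those of Hmgcs1, Nsdhl, Acly, Fads1 and Gpam. The mean of all probe sets ended 6 of the 23 calls, those of Fdps, Acly, Acss2, Fads1, Gpam and Fdft1, the last of which turned to −0.064.

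**Figure D4:**
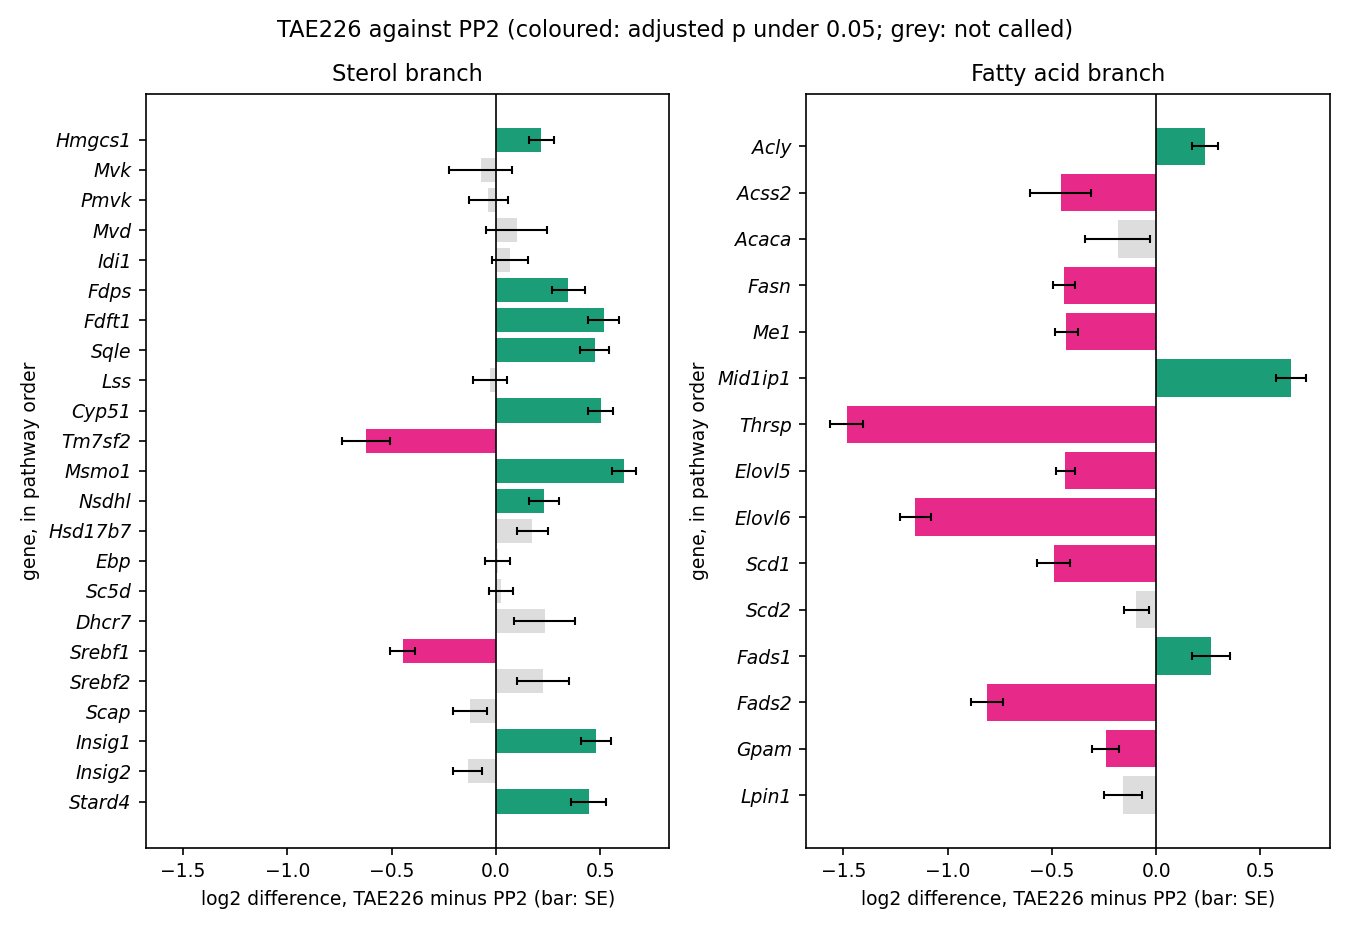
Log2 difference, TAE226 minus PP2, of each sterol branch gene (left) and fatty acid branch gene (right), in pathway order, with SE bars; green bars were called higher and pink bars lower under TAE226, and grey bars were not called. The sterol panel holds 9 green and 2 pink bars and the fatty acid panel 3 green and 9 pink bars.

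In the contrasts of DAPT and U0126 with PP2 and TAE226, more members were higher than lower. Under U0126, 25 of 38 genes were higher and 6 lower than under PP2 (27.8% and 28% of all genes tested), with branch medians of 0.53 for sterol and 0.13 for fatty acid genes. Under U0126, 27 were higher and 1 lower than under TAE226 (17.7% and 19.5%), with medians of 0.32 and 0.37. Under DAPT, 20 were higher and 4 lower than under PP2 (21.6% and 18.1%), with 15 of the 20 in the sterol branch, and 15 were higher and 1 lower than under TAE226 (11.4% and 11.2%). Between DAPT and U0126, 6 were higher and 13 lower under DAPT (23.2% and 21.6%), with medians of −0.092 and −0.13; with median centring that split was 3 and 13. Insig1 was 1.34 under DAPT relative to PP2, Tm7sf2 was 1.30 under U0126 relative to TAE226, and Thrsp was 1.51 under DAPT relative to U0126, 2.41 relative to TAE226 and 0.92 relative to PP2.

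Other probe sets of the same genes were compared with those used. Counting sets above the median on all arrays, 79 comparisons of an inhibitor with vehicle could be made for 22 genes with a call, and 72 of them had the same direction as the set used. The 7 with the opposite direction belonged to Fads1, Hsd17b7, Sc5d and Scd2. This tally takes direction alone and not size: under PP2 the second sets of Mvd and Acss2 gave −0.067 and −0.12. Smaller falls than with the set used were also given by second sets of Srebf2, Lss and Idi1. Under TAE226 and PP2 these were −0.17 and −0.27 for Srebf2 and −0.26 and −0.32 for Lss. Under DAPT that of Idi1 was −0.060. Larger falls occurred too, as for Idi1 (−1.06) and a further set of Stard4 (−1.79) under PP2. The second set of Cyp51 gave −0.57, −0.88, −0.82 and −1.55 under DAPT, U0126, TAE226 and PP2, and the second set of Thrsp gave 2.07, 0.44, −0.20 and 0.88. Elovl6 gave 0.15, 0.29, −0.65 and 0.45. Averaging all probe sets of a gene, dim ones included, ended 26 of the 96 calls against vehicle, among them those of Fdps under DAPT, TAE226 and PP2, Msmo1 under DAPT, U0126 and TAE226, Idi1 under DAPT and U0126, Lss and Sqle under U0126, Thrsp, Fads1 and Gpam under TAE226, and Acly, Acss2 and Fads1 under PP2. The further sets of Fdps and Msmo1 have mean log2 signals of 0.39 and 6.26. Sqle has 1 probe set, so its signals did not change in that average.

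**Figure D5:**
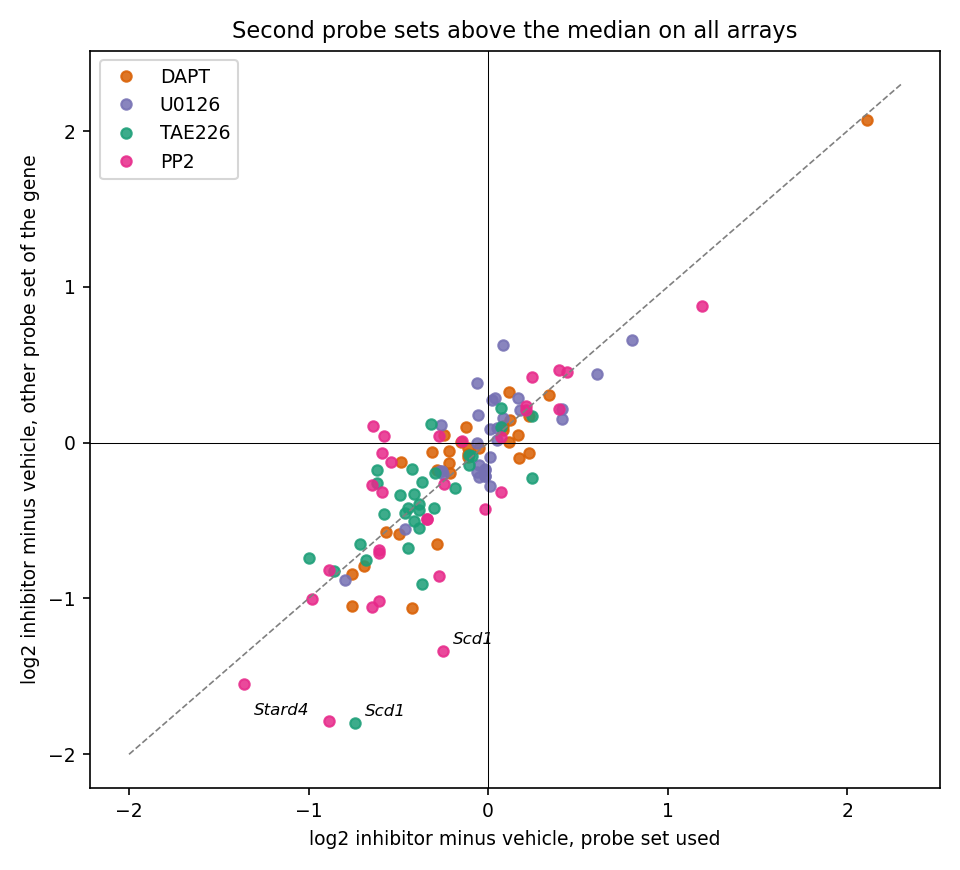
Log2 difference, inhibitor minus vehicle, of the probe set used (horizontal axis) and of each other probe set of the same gene that lay above the median on all arrays (vertical axis), coloured by inhibitor; the dashed line marks equal values. Thrsp under DAPT lies at 2.11 and 2.07, and Scd1 under TAE226 lies at −0.74 and −1.80, below the line.

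Genes outside the 39 that handle sterols or fatty acids were counted from lists. The list of other fatty acid and triglyceride genes, with elongases and a desaturase gene among them, had 14 tested genes. Of these, 6 fell and 4 rose under PP2 (26.7% and 26.1% of all genes tested). Under TAE226, 3 fell and 1 rose (15.9% and 15.2%). Under DAPT 4 fell (17.5%), and under U0126 4 fell and 2 rose (21.4% and 19.5%). The same shares stand beside the lists that follow, and several of their counts lie near them. Acsl3, an acyl-CoA synthetase of lipid droplets, was −0.49 (adjusted p = 1.82e-05) under DAPT, a call lost in the mean of all probe sets (adjusted p = 0.079), −0.35 (adjusted p = 0.000345) under U0126, −0.88 (adjusted p = 3.11e-08) under TAE226 and −1.49 (adjusted p = 8.96e-12) under PP2, and Plin2, a lipid droplet coat protein, was −0.43 under DAPT, −0.52 under U0126, −0.32 under TAE226 and −0.28 under PP2, all called. The LXR list holds targets of this oxysterol receptor and also the receptor genes, Nr1h2 and Nr1h3. Of its 5 tested genes, 2 rose and 1 fell under PP2, and 3 rose and 1 fell under TAE226. Under U0126 3 rose, and under DAPT 1 rose and 2 fell. The rise of Mylip under TAE226 (0.21, adjusted p = 0.034) was −0.046 with median centring and was lost without vehicle replicate 2 or any 1 TAE226 array (adjusted p = 0.0508 to 0.191), without the trend and in the fit of 2 groups. Abcg1, a sterol exporter, was −0.48 under DAPT, 0.34 under U0126, 0.82 under TAE226 and 1.24 under PP2, all called, with the rise under U0126 lost in median centring (0.25, adjusted p = 0.126) and in the mean of all probe sets (adjusted p = 0.134), which also ended the DAPT call (adjusted p = 0.173). Of 11 genes of sterol processing and SREBP handling, 5 rose and 4 fell under PP2, 4 fell under TAE226, and 2 rose under each of DAPT and U0126 with 1 and 2 falls; Lipa, the lysosomal lipase that frees cholesterol, was 1.19 (adjusted p = 1.17e-10) under PP2 and −0.57 (adjusted p = 2.03e-06) under U0126. Of 8 genes of fatty acid oxidation, 3 fell and 2 rose under PP2, including Acadl at −1.25 (adjusted p = 2.78e-11) and Cpt1a at −0.80 (adjusted p = 2.46e-07); Acadl was not called in the average over all its probe sets (adjusted p = 0.52).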

How the data were processed

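RNA from 15 samples was hybridised to Affymetrix mouse arrays. The deposited values are MAS5 signal intensities, which the authors produced with Affymetrix Expression Console and MAS5, per the submitters' processing notes, with no version given there; the values themselves have a trimmed mean of 500 on each array (2% trimmed from each end). Intensities were taken as log2 with no pseudocount. Of 45101 probe sets, 64 controls were left out, 34945 named 1 gene in the platform annotation, 932 named several and 9160 none; 34741 symbols were updated through the Entrez ID and 204 kept. Each gene was represented by its brightest probe set, with sets whose suffix marks possible cross-hybridisation (_x_at) used only where no other existed, which mattered for Hmgcs1, Fdft1 and Hsd17b7. Genes above the array median on at least 3 arrays were tested.

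All 5 groups entered 1 linear model in limma 3.58.1 (R 4.3.3) with an intensity trend, 10 residual and 6.4 prior degrees of freedom, and Benjamini-Hochberg adjustment over all 11412 genes; all p-values in the text, F-test included, are from limma. The fit was tested on simulated data. The precision is limited by 3 arrays per group. Replicate numbers were not taken to pair the samples: deviations of same-numbered samples correlated at −0.24 to 0.20, over 0.1 in 6 of 30 pairs, and the labels name no shared batch. The alternatives were median centring, quantile normalization, a pseudocount, other filters, the mean over probe sets, no trend, fits of 2 groups, a replicate block and leaving out each array.

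The members and lists were chosen with earlier results of these data known. Within a step, values on every array are given for the called genes with the greatest fold changes (at most 3, or 4 for sensors) and for the pairs Insig1 and Insig2, Srebf1 and Srebf2, and Scd1 and Scd2; from other lists at most 3 called genes per comparison are named. Promoters are from RefSeq (GRCm38.p6).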

Additional observations from a re-analysis of the deposited data

How the results depend on the processing

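Median centring turned the fatty acid median under U0126 to −0.060, Mylip under TAE226 to −0.046 (adjusted p = 0.738, limma), Hsd17b7 under TAE226 to −0.0093, and Scap and Insig2 under PP2 to −0.015 and −0.011; by construction it subtracts each array's median, and it moved the all-gene medians below 0. The mean of all probe sets gave 7 called sterol genes under DAPT and 7 under U0126 (12 each with the set used). It gave 5 fatty acid genes under U0126 (3 with the set used). The counts over all genes in that setting are given with the sterol branch. That mean turned Sc5d to 0.015 under U0126 and 0.12 under PP2, and Hsd17b7 to −0.034 under TAE226. It also turned Fdft1 to −0.064 for TAE226 against PP2. The mean of all probe sets brings in dim sets. The brightest set with _x_at included, an alternative chosen after seeing the data, gave Hsd17b7 at −0.066 under DAPT, −0.23 under TAE226 and −0.32 under PP2.

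Of the 96 calls against vehicle, the mean of probe sets ended 26, median centring 8, fits of 2 groups 6, no intensity trend 4, _x_at included 4, quantile normalization 3, no filter 2 and the replicate block 1 (Sqle under U0126, adjusted p = 0.072, limma). Without 1 array, called sterol genes numbered 10 to 13 under DAPT, 8 to 11 under U0126, 15 to 18 under TAE226 and 18 to 20 under PP2, and fatty acid genes 6 to 7, 3 to 4, 11 to 13 and 10 to 11. The fatty acid median under U0126 ran from −0.015 to 0.062. Members that differed among the 5 groups numbered 33 to 36. Calls between inhibitors numbered 15 to 19 for DAPT against U0126, 14 to 17 for DAPT against TAE226, 19 to 27 for DAPT against PP2, 26 to 28 for U0126 against TAE226, 30 to 32 for U0126 against PP2 and 20 to 25 for TAE226 against PP2. All members lay above the array median, and the number of arrays limits the precision.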
